A study of Homo sapiens with 18 samples.

Results

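CDK12, STARD3, PGAP3, MIEN1, GRB7 and ORMDL3 lie beside ERBB2, the gene for the receptor tyrosine kinase HER2, on human chromosome 17, and were followed through 18 expression arrays of 3 breast cancer cell lines. The 6 genes were taken by the gene symbol of the array platform, with 1 array feature (a transcript cluster) per gene, and each symbol had 1 feature, so no choice between features was needed. They are 6 of 53617 features on the array, of which 16098 carry 1 gene symbol (14884 distinct symbols). Features brighter than the median feature in 1 or more of the 6 groups were tested. These were 29855 features, 12003 of them with a symbol, and all 6 genes were among them.

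The groups, of 3 arrays each, were SKBR3 cells given an antisense oligonucleotide (ASO) against the long non-coding RNA (lncRNA) LINC01269, SKBR3 cells given a control ASO, MDA-MB-231 cells given an ASO against the lncRNA AL078604.2, MDA-MB-231 cells given a control ASO, and MDA-MB-468 cells given the anti-AL078604.2 ASO or a control ASO. By the submitters' account the SKBR3 cells are HER2-positive and the other lines triple-negative, and all are established lines. In all 6 groups, controls included, the ASO was a GapmeR (an oligonucleotide that directs RNase H to its target RNA) given at 15 nM for 48 h with the transfection reagent TransIT-BrCa. LINC01269, AL078604.2 and ERBB2 itself have no feature with a symbol, so neither the knockdown nor the ERBB2 transcript was analysed here.

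In HER2-positive tumours a stretch of chromosome 17 is copied many times, and the copied stretch usually holds neighbours of ERBB2 as well as ERBB2. GRB7 and MIEN1 are classed with signalling: GRB7 is an SH2-domain adaptor that binds activated ERBB receptors, and MIEN1 is a small membrane-anchored protein linked to cell migration. STARD3, PGAP3 and ORMDL3 act on membrane lipids: STARD3 transfers sterol at contacts between late endosomes and the endoplasmic reticulum, PGAP3 remodels the lipid of GPI anchors, and ORMDL3 restrains serine palmitoyltransferase, the entry enzyme of sphingolipid synthesis. CDK12 pairs with cyclin K and phosphorylates the tail of RNA polymerase II, and it is known for its part in transcribing long DNA repair genes.

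By RefSeq annotation of GRCh38.p14, the gene spans run along chromosome 17 in the order CDK12 (chr17:39461486-39567559), STARD3 (chr17:39637144-39664201), PGAP3 (chr17:39671122-39688057), ERBB2 (chr17:39688094-39728658), MIEN1 (chr17:39728510-39730532), GRB7 (chr17:39737938-39747285) and ORMDL3 (chr17:39921041-39927601). The stretch from the lowest coordinate of CDK12 to the highest of ORMDL3 is 466 kb long and holds ERBB2 and other genes as well. PGAP3 and MIEN1 lie on the minus strand on either side of ERBB2, which is on the plus strand. The spans of ERBB2 and MIEN1 overlap by 149 bases, and those of PGAP3 and ERBB2 are 36 bases apart. Counted from the lowest coordinate of ERBB2, that of CDK12 is at -226.6 kb and that of ORMDL3 at 232.9 kb.

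Sequences upstream of 3 of the genes are printed to show how close PGAP3 lies to ERBB2 and what lies before MIEN1 and ORMDL3, whose levels differed most between SKBR3 and the other lines. They are RefSeq sequences of GRCh38.p14, each on the minus strand of its gene. The first is the whole stretch between the spans of PGAP3 and ERBB2 (chr17:39688058-39688093), with capitals marking CCGGAAG on either strand, letters that hold the GGAA core of ETS-family factors. The next is the 250 bases before MIEN1 (chr17:39730533-39730782), with capitals marking the E-box CACGTG. The last is the 250 bases before ORMDL3 (chr17:39927602-39927851), with capitals marking TGACGT on either strand, a core bound by CREB and ATF factors.
PGAP3-ERBB2 gap: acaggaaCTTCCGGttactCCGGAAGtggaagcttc
MIEN1 upstream: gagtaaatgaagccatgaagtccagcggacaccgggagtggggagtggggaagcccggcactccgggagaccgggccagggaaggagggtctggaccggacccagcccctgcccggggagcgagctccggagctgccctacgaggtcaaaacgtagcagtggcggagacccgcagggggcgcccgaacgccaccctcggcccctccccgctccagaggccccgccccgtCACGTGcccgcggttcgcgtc
ORMDL3 upstream: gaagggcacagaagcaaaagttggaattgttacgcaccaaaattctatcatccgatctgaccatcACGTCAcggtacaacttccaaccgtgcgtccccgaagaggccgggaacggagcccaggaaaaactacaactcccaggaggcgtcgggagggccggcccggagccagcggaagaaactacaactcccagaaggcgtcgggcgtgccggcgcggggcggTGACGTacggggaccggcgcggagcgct
These letter runs were chosen after the sequences had been seen. Both strands were searched, and matches could overlap other motifs. Upstream windows of 250 bases were given for 5 of the 6 genes. CCGGAAG stood in the windows of PGAP3 (2 copies, both within the stretch printed above) and STARD3 (1 copy), against 8.52% of 35116 windows of the same length. CACGTG stood in that of MIEN1 (1 copy), against 6.34% of windows, and TGACGT in that of ORMDL3 (2 copies), against 7.1%. The GC-box letters GGGCGG stood in 4 of the 5 windows, all but that of CDK12, against 42.6%. A match here describes letters and not a bound site.

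Array medians of the deposited log2 values were 4.56 to 4.63 for the arrays labelled SKBR3, 5.41 to 5.43 for those labelled MDA-MB-231 and 5.21 to 5.24 for those labelled MDA-MB-468. The lines thus appear to have been scaled separately, and line and array set cannot be told apart in any comparison between lines. Such comparisons were made on quantile-normalized values and set beside the percentile of a gene within its array. The labels were checked against marker genes in the control ASO arrays. There 7 of 12 luminal and HER2-enriched markers passed as higher in SKBR3 than in the mean of both other lines and 0 as lower. They were AGR2 (0.94), KRT18 (0.57), FOXA1 (0.39), SPDEF (0.36), XBP1 (0.31), KRT7 (0.29) and GATA3 (0.17), on the log2 scale. Of all features tested, 16.9% passed as higher and 18.1% as lower. KRT8 (0.26), KRT19 (0.17), TFAP2B (0.03), ERBB3 (-0.02) and TFF3 (-0.05) did not pass. SKBR3 had the highest percentile for all 7, but was close to MDA-MB-231 for KRT18, KRT7, SPDEF and XBP1 and to MDA-MB-468 for GATA3. KRT18 stood at 98.7 in SKBR3, 98.47 in MDA-MB-231 and 96.99 in MDA-MB-468. KRT7 stood at 85.22, 85.18 and 80.33, and SPDEF at 97.25, 97.02 and 95.54. XBP1 stood at 96.38, 95.87 and 94.93, and GATA3 at 90.15, 88.51 and 89.78. FOXA1 stood at 89.84, 86.13 and 88.42. The widest gap was that of AGR2, at 69, 51.86 and 54.28. KRT5 and KRT14, keratins of basal cells, were lower in SKBR3 by log2 differences of -0.95 and -1.30. KRT14 was higher in MDA-MB-231 than in MDA-MB-468 (1.27), as were the luminal markers KRT18 (0.79), KRT7 (0.58) and SPDEF (0.52). KRT5 (-1.32) and GATA3 (-0.20) were lower in MDA-MB-231, and the other luminal markers did not pass there. What these differences mean for the labels was not tested. Of 5 mesenchymal markers tested, AXL (0.67) and SNAI2 (0.37) were higher in SKBR3 and LOX (-0.46) was lower, while VIM (-0.35) and FN1 (0.17) did not pass. AXL stood at percentile 80.9 in SKBR3, 83.2 in MDA-MB-231 and 60.3 in MDA-MB-468, and SNAI2 at 75.9, 78.9 and 61.4. For AXL and SNAI2, SKBR3 was thus above MDA-MB-468 but not above MDA-MB-231. The mesenchymal markers did not run 1 way between MDA-MB-231 and MDA-MB-468. AXL (1.90) and SNAI2 (1.34) were higher in MDA-MB-231 and LOX (-0.64) was lower, while VIM (-0.62) and FN1 (-0.24) did not pass. RB1, known to be lost in MDA-MB-468, stood at percentile 48.0 in SKBR3, 60.5 in MDA-MB-231 and 24.9 in MDA-MB-468. EGFR, of which MDA-MB-468 carries extra copies, stood at percentile 99.0 in SKBR3, 98.2 in MDA-MB-231 and 98.7 in MDA-MB-468. It was lower in MDA-MB-231 than in MDA-MB-468 (log2 difference -0.31, limma adjusted p = 0.0239), which runs with the label, whereas its level in SKBR3, higher than the mean of both other lines (0.42), goes against it. CDKN2A, known to be lost in MDA-MB-231, stood at percentile 75.8 in SKBR3, 74.7 in MDA-MB-231 and 78.1 in MDA-MB-468. It was lower in MDA-MB-231 than in MDA-MB-468 (-0.33, limma adjusted p = 0.0226), which runs with the label, but its percentile in MDA-MB-231 is above that of the median named gene. Median percentiles of 3 named leukocyte markers and 4 named fibroblast and endothelial markers were at most 45.2 in any group, and the median named gene stood at percentile 68.2 to 69.3 in every array. CD68, a lysosomal protein and macrophage marker, differed from its list, at percentile 78.2 to 80.0 in the SKBR3 groups, 84.1 to 87.5 in the MDA-MB-231 groups and 68.9 to 73.7 in the MDA-MB-468 groups. It was higher in MDA-MB-231 than in MDA-MB-468 (1.46, limma adjusted p = 9.63e-06), and its part in the results below was not tested. Since RNA was taken from whole cultures, fewer cells with a transcript and less of it per cell cannot be told apart. The labels do not say that replicate arrays came from separate cultures, so p-values measure the spread between these arrays, which may be technical.

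The first comparison asked how the ERBB2 neighbours stood in SKBR3, the line known for ERBB2 amplification, against the other lines, with the control ASO. On quantile-normalized values, ORMDL3 was the only one of the 6 genes that was higher in the arrays labelled SKBR3. MIEN1, the gene whose span overlaps that of ERBB2, was lower there. GRB7, STARD3, PGAP3 and CDK12 did not pass the test. The amplification itself was not measured here, and the EGFR level in SKBR3 went against the label, as given above. Whether these levels follow the copy number, the scaling of the arrays or the labelling of the lines was not tested.

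ORMDL3 had quantile-normalized log2 values of 7.94, 8.05 and 8.08 in SKBR3, against 7.44, 7.49 and 7.49 in MDA-MB-231 and 7.49, 7.57 and 7.64 in MDA-MB-468. All 3 SKBR3 arrays lay above all 6 others. The difference was 0.50 ± 0.07 on the log2 scale (SE; 95% interval 0.36 to 0.64), a 1.42-fold higher level (interval 1.28 to 1.56), and passed limma's moderated test with an adjusted p of 2.99e-05. Among the 11148 named genes tested it ranked 391 from the highest difference. Its percentile within the array was 86.5 to 87.5 in SKBR3, 82.5 to 83.0 in MDA-MB-231 and 83.0 to 84.3 in MDA-MB-468.

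MIEN1 had quantile-normalized log2 values of 7.99, 7.77 and 7.83 in SKBR3, against 8.69, 8.73 and 8.72 in MDA-MB-231 and 8.20, 8.28 and 8.23 in MDA-MB-468. The 3 lines did not overlap, and SKBR3 was the lowest. The log2 difference of SKBR3 from the mean of the others was -0.61 ± 0.07 (SE; 95% interval -0.76 to -0.46), a ratio of 0.654 (interval 0.589 to 0.726), with a limma adjusted p of 7.64e-06. It ranked 10720 of 11148 named genes. Without any normalization between lines the MIEN1 difference was -1.30 (limma adjusted p = 1.80e-10), beside a median of -0.69 for all features. Its percentile was 85.3 to 86.9 in SKBR3, 91.1 to 91.4 in MDA-MB-231 and 88.3 to 88.8 in MDA-MB-468.

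GRB7, the adaptor that lies next to MIEN1, had quantile-normalized log2 values of 7.03, 6.99 and 7.14 in SKBR3, against 7.18, 7.42 and 7.29 in MDA-MB-231 and 7.06, 7.01 and 6.99 in MDA-MB-468. The SKBR3 arrays lay below those of MDA-MB-231 and overlapped those of MDA-MB-468. The log2 difference of -0.10 (95% interval -0.26 to 0.05) did not pass, with a limma adjusted p of 0.298. Its interval reaches from a ratio of 0.835 to a ratio of 1.04, so a GRB7 level in SKBR3 more than 1.04 times that of the other lines lies outside it on this scale.

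STARD3 had quantile-normalized log2 values of 7.55, 7.54 and 7.59 in SKBR3, against 7.57, 7.70 and 7.92 in MDA-MB-231 and 7.42, 7.50 and 7.61 in MDA-MB-468. The SKBR3 arrays lay within the range of the others, with a log2 difference of -0.06 (95% interval -0.24 to 0.12, limma adjusted p = 0.629). PGAP3, whose span lies 36 bases from that of ERBB2, had 6.38, 6.19 and 6.41 in SKBR3, against 6.52, 6.74 and 6.74 in MDA-MB-231 and 6.10, 6.30 and 6.16 in MDA-MB-468. Its SKBR3 arrays lay between those of MDA-MB-231 and those of MDA-MB-468, with some overlap with MDA-MB-468, and the log2 difference of -0.10 (interval -0.35 to 0.15, limma adjusted p = 0.542) did not pass. CDK12 had 8.55, 8.65 and 8.60 in SKBR3, against 8.47, 8.44 and 8.45 in MDA-MB-231 and 8.78, 8.72 and 8.54 in MDA-MB-468, a log2 difference of 0.04 (interval -0.10 to 0.17, limma adjusted p = 0.678). The SKBR3 arrays lay above those of MDA-MB-231 and overlapped those of MDA-MB-468.

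**Figure D1:**
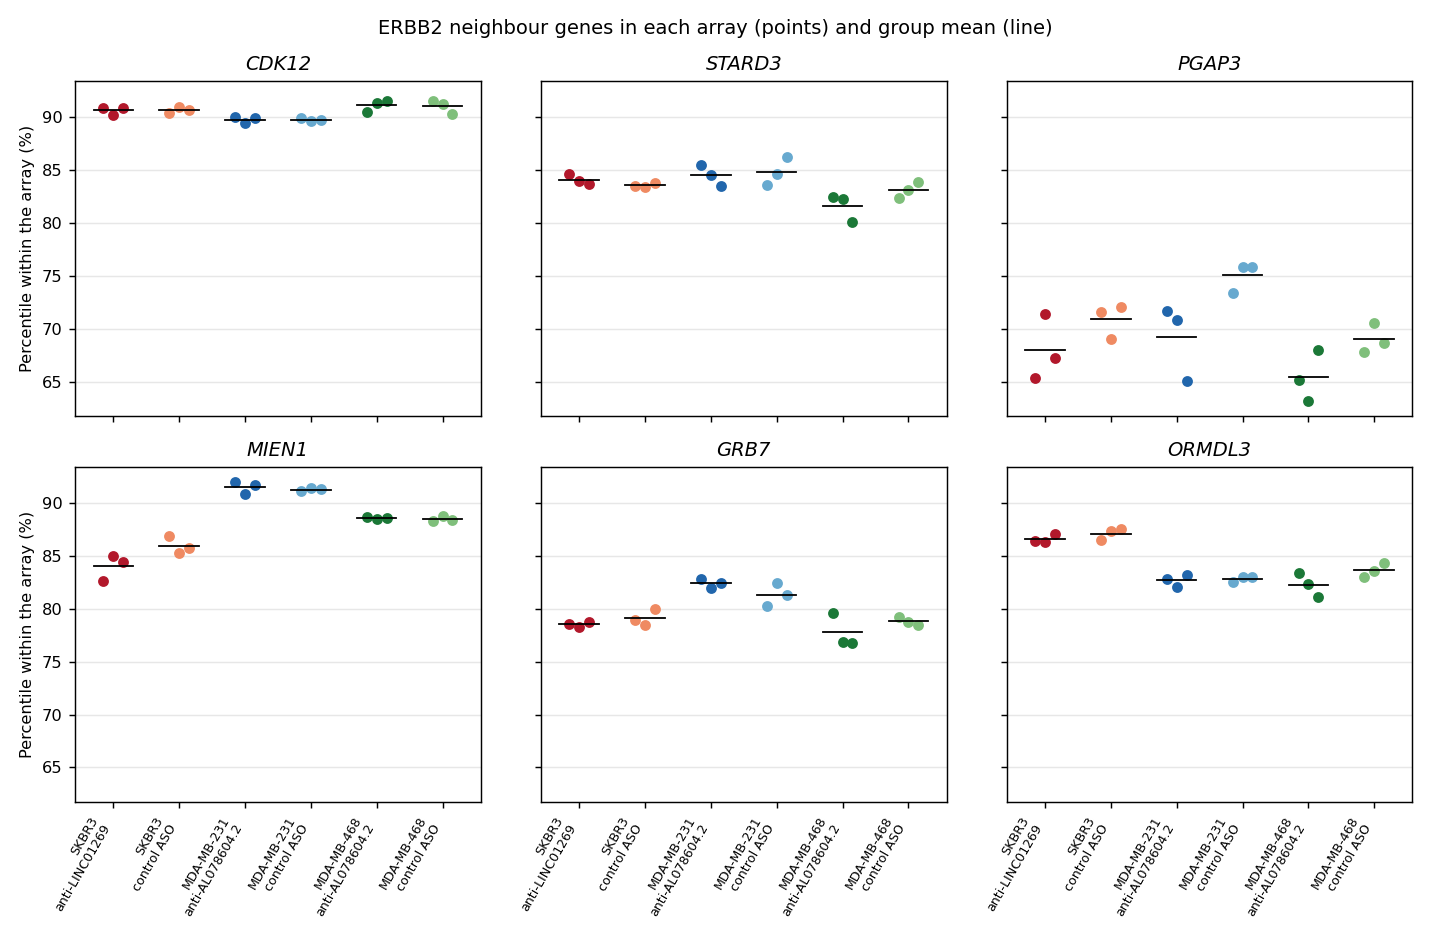
Percentile of each gene within its array (vertical axis, in percent of the features on that array), with a point per array, a line at the mean of each group and 3 arrays in each of the 6 groups. ORMDL3 stands higher in the SKBR3 control arrays (86.5 to 87.5) than in the control arrays of the other lines (82.5 to 84.3), and MIEN1 stands lower (85.3 to 86.9 against 88.3 to 91.4).

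In all, 2 of the 6 genes passed the test in this comparison, against 35.1% of all features tested, 16.9% higher and 18.1% lower. The same 2 genes, ORMDL3 and MIEN1, had SKBR3 arrays that did not overlap the others, against 27.4% of all features. Both shares of the 6 genes are near that background. The median difference of the 6 genes was -0.08 on the log2 scale, and that of all named genes tested was -0.01. The direction of ORMDL3 depends on the scaling between lines. Without any normalization between lines the median of all features lay at -0.69, all 6 genes were lower in SKBR3 and ORMDL3 turned to -0.18 (limma adjusted p = 0.0200), which is still above that median.

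**Figure D2:**
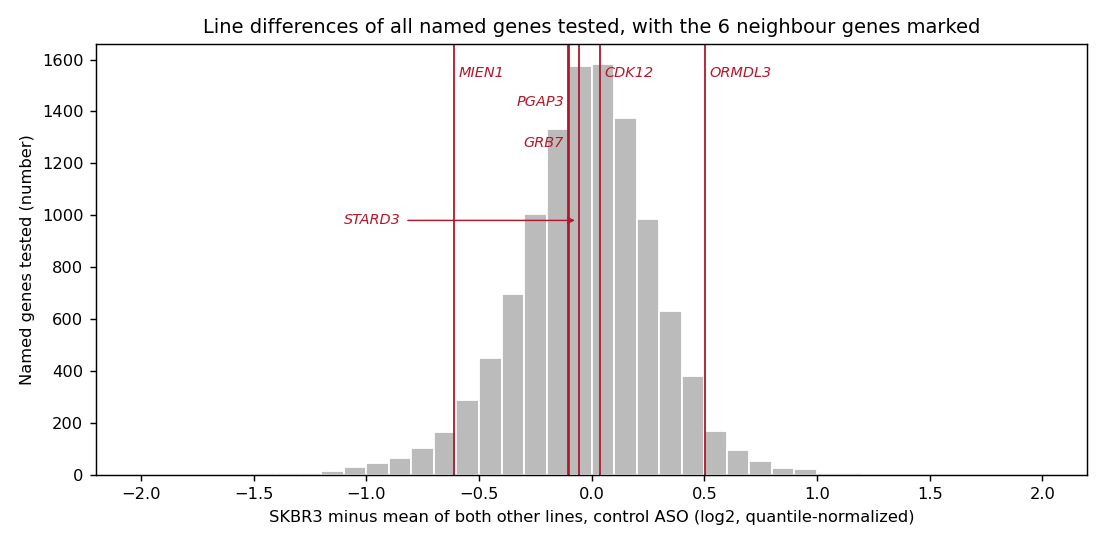
Number of named genes tested (vertical axis) by the log2 difference of SKBR3 from the mean of both other lines in control ASO arrays (horizontal axis, quantile-normalized values), with a red line at each of the 6 genes. ORMDL3 (0.50) and MIEN1 (-0.61) lie in the tails, the other 4 genes lie between -0.10 and 0.04, the lines of PGAP3 and GRB7 coincide, and 9 genes outside -2 to 2 are not drawn.

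Of 37 genes listed for 17q12-q21, 24 had a named feature and 21 were tested, and 5 passed as higher in SKBR3 and 3 as lower, with a median of 0.09 beside 8.58e-05 for all features. Of all features 35.1% passed (16.9% higher and 18.1% lower), so the 8 of 21 calls in the region are near the background. MED1, a Mediator subunit that bridges to nuclear receptors, was higher by 0.44 on the log2 scale (limma adjusted p = 2.83e-05). The others that were higher were IGFBP4 (0.25), MSL1 (0.19), LASP1 (0.18) and CASC3 (0.17). CDC6, a replication licensing factor, was lower (-0.41, limma adjusted p = 0.00675), as were GSDMB (-0.39), a gasdermin, and CWC25 (-0.36), a splicing factor.

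**Figure D3:**
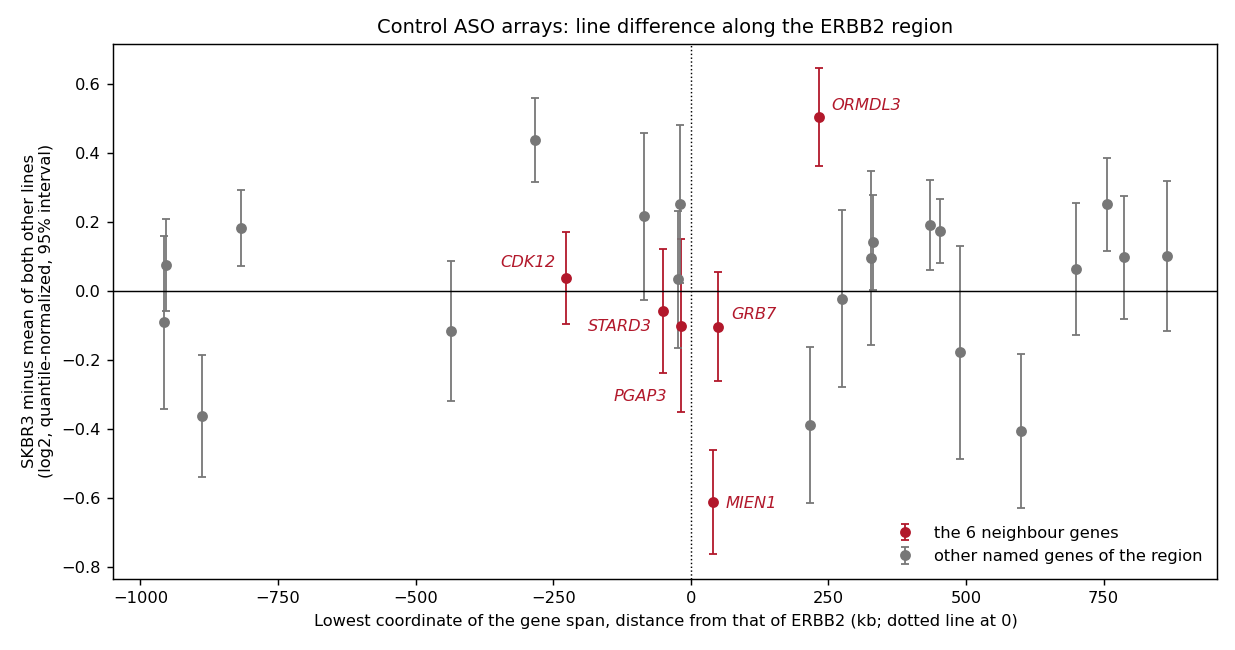
Log2 difference of SKBR3 from the mean of both other lines in control ASO arrays (vertical axis, quantile-normalized values, bars give the 95% interval) against the distance of the lowest coordinate of each gene span from that of ERBB2 (horizontal axis, kb; the lowest coordinate of a minus-strand gene is its last base), with the 6 genes in red and other named genes of the region in grey. ORMDL3 at 232.9 kb is the only red point whose interval lies wholly above 0, and MIEN1 at 40.4 kb is the only one wholly below it.

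Lists of genes from each neighbour's own pathway were counted in the same comparison, in which 35.1% of all features passed (16.9% higher and 18.1% lower). The counts are given as a description beside that share, and nothing particular to a list is read from them. In the list of ERBB receptors and GRB7-family adaptors, 9 genes were tested, EGFR was higher (0.42), and the adaptor GRB14 (-0.72), focal adhesion kinase PTK2 (-0.47) and the ERBB2-binding scaffold ERBIN (-0.36) were lower. In the sphingolipid list around ORMDL3, 10 genes were tested, with 5 higher and 4 lower. The paralogue ORMDL2 was higher (0.43) and the paralogue ORMDL1 lower (-0.25). Among the sphingomyelin synthases, SGMS2 (0.64) and SGMS1 (0.24) were higher. Of the ceramide synthases, CERS2 (0.25) and CERS6 (0.25) were higher and CERS4 (-0.64) and CERS5 (-0.27) were lower, as was the reductase KDSR (-0.24).

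In the sterol transport list around STARD3, 8 genes were tested, and the STARD3 paralogue STARD3NL (0.83) and the lysosomal membrane protein LAMP1 (0.51) were higher and the endoplasmic reticulum tether VAPB (-0.26) was lower, while OSBPL1A, an oxysterol-binding protein relative, had a difference of -0.34 that did not pass (limma adjusted p = 0.178). In the GPI anchor list around PGAP3, 6 genes were tested, DPM3, a subunit of the mannose donor synthase, was higher (0.55), PGAP2, another remodelling factor, was lower (-0.35), and PGAP6 did not pass (-0.19, limma adjusted p = 0.107). In the CDK12 list, 9 genes were tested, and CCNK (0.43), the cyclin partner of CDK12, and MDC1 (0.45), a DNA damage adaptor, were higher and RAD51C (-0.50), a recombination protein, was lower. In the MIEN1 pathway list, 4 genes were tested, the kinase AKT1 was higher (0.74), VEGFA was lower (-0.34), and ANXA2 did not pass (0.23, limma adjusted p = 0.0564). All differences in both paragraphs are on the log2 scale of quantile-normalized values.

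The same difference between lines was taken in the anti-lncRNA ASO arrays, which the control comparison did not use, although the ASO differs between SKBR3 and the other lines. These arrays carry the same line labels and a like offset between lines, and were normalized and fitted together with the control arrays. They are thus no separate check of the scaling or the labels. MIEN1 was lower in SKBR3 again and ORMDL3 was higher again. MIEN1 had quantile-normalized log2 values of 7.45, 7.73 and 7.67 in SKBR3, against 8.85, 8.62 and 8.80 in MDA-MB-231 and 8.27, 8.24 and 8.26 in MDA-MB-468, with no overlap. Its log2 difference was -0.89 ± 0.07 (SE; 95% interval -1.04 to -0.74), a ratio of 0.539 (limma adjusted p = 1.73e-07), and -1.56 without any normalization between lines, beside a median of -0.68 for all features. ORMDL3 had 7.93, 7.92 and 8.03 in SKBR3, against 7.47, 7.38 and 7.51 in MDA-MB-231 and 7.54, 7.41 and 7.27 in MDA-MB-468, also with no overlap. Its log2 difference was 0.53 ± 0.07 (SE; interval 0.39 to 0.67), a 1.44-fold higher level (limma adjusted p = 1.60e-05).

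These were 2 of the 6 genes, against 37% of all features (18.2% higher and 18.8% lower), and 2 without overlap, against 22.5%. GRB7 had a log2 difference of -0.18 (95% interval -0.34 to -0.02) that did not pass (limma adjusted p = 0.0686). It passed without MDA-MB-468 anti-AL078604.2 replicate 3 (-0.20, limma adjusted p = 0.0437). STARD3 (0.12), PGAP3 (0.04) and CDK12 (0.03) did not pass. Without any normalization between lines ORMDL3 turned to -0.15 here (limma adjusted p = 0.0490), beside a median of -0.68 for all features.

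Between the lines without ERBB2 amplification, MDA-MB-231 against MDA-MB-468, 4 of the 6 genes passed with the control ASO, 3 higher and 1 lower, against 26.1% of all features, 13.3% higher and 12.8% lower. The median difference of the 6 genes was 0.25 on the log2 scale, beside 0.02 for all named genes tested. For 4 of the 6 genes the arrays of both lines did not overlap, against 47.1% of all features. MIEN1 was higher in MDA-MB-231 by 0.47 ± 0.08 on the log2 scale (SE; 95% interval 0.30 to 0.65), a 1.39-fold higher level (limma adjusted p = 0.000543), from the values given above. PGAP3 was higher by 0.48 ± 0.14 (interval 0.20 to 0.77), 1.40-fold (limma adjusted p = 0.0153), and GRB7 by 0.27 ± 0.09 (interval 0.09 to 0.45), 1.21-fold (limma adjusted p = 0.0266). CDK12 was lower, by a log2 difference of -0.23 ± 0.07 (interval -0.38 to -0.08, limma adjusted p = 0.0284). STARD3 (0.22, limma adjusted p = 0.113) and ORMDL3 (-0.09, limma adjusted p = 0.408) did not pass.

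The MIEN1 call between these lines held without any 1 of the 6 control arrays (limma adjusted p from 0.00184 to 0.00382). PGAP3 no longer passed without MDA-MB-231 control replicate 2 (0.0579) or 3 (0.0558) or MDA-MB-468 control replicate 1 (0.0591), values that are limma adjusted p. GRB7 no longer passed without MDA-MB-231 control replicate 2 (0.129) or 3 (0.0625) or MDA-MB-468 control replicate 2 (0.0683) or 3 (0.0814). CDK12 passed only without MDA-MB-468 control replicate 3, and its adjusted p was 0.0579, 0.0804 and 0.0694 without MDA-MB-231 control replicates 1, 2 and 3 and 0.132 and 0.0898 without MDA-MB-468 control replicates 1 and 2. Of the wider region, 4 of the 21 genes were higher in MDA-MB-231 and 1 was lower, near the background of 26.1% of all features (13.3% higher and 12.8% lower). The higher ones were PCGF2 (0.49), LASP1 (0.43), CASC3 (0.38) and IGFBP4 (0.27), and TOP2A was lower (-0.33).

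The order of the groups was described for each gene by its quantile-normalized group mean, with neighbours in the order compared by the overlap of their arrays. For ORMDL3 both SKBR3 groups stood highest (8.02 with the control ASO, 7.96 with the anti-LINC01269 ASO), and a gap without overlap set them off from the 4 other groups, which lay between 7.41 and 7.57 and overlapped their neighbours. For MIEN1 both MDA-MB-231 groups stood highest (8.76 and 8.71), then both MDA-MB-468 groups (8.26 and 8.24), then SKBR3 with the control ASO (7.86) and with the anti-LINC01269 ASO (7.62), with no overlap between lines or between the SKBR3 groups. For GRB7 both MDA-MB-231 groups (7.42 and 7.29) lay above the other 4 without overlap. For CDK12 only the gap between both MDA-MB-231 groups, the lowest at 8.45 each, and the rest had no overlap. For PGAP3 only MDA-MB-231 with the control ASO (6.67) was set off from the next group, and for STARD3 every group overlapped its neighbours.

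Each ASO was then set against the control ASO of its line, on the log2 values as deposited, to see whether the ASO treatments moved the ERBB2 neighbours. None of the 6 genes passed in any line. Across all features limma called 0 with the anti-LINC01269 ASO in SKBR3 (2736 at an unadjusted p under 0.05), 51 of 29855 with the anti-AL078604.2 ASO in MDA-MB-231 and 2 in MDA-MB-468. These are 0%, 0.171% and 0.0067% of features.

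In SKBR3 the size of MIEN1's difference was the largest of the 6 genes. MIEN1 had deposited log2 values of 6.99, 7.31 and 7.22 with the anti-LINC01269 ASO, against 7.53, 7.35 and 7.35 with the control ASO. All 3 treated arrays lay below all 3 controls. The difference was -0.23 on the log2 scale (95% interval -0.42 to -0.05, a ratio of 0.850), with a limma adjusted p of 0.450. Its unadjusted p was 0.0145, and 9.16% of all features had an unadjusted p under 0.05.

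STARD3 also did not overlap, with 7.24, 7.19 and 7.14 with the anti-LINC01269 ASO, against 7.10, 7.12 and 7.13 with the control ASO, but its difference was 0.07 (interval -0.14 to 0.28, limma adjusted p = 0.873). These were 2 of 6 genes without overlap, 1 higher and 1 lower, against 11.5% of all features. On quantile-normalized values the STARD3 groups did overlap, with 7.58 in anti-LINC01269 replicate 3 and 7.59 in control replicate 3. PGAP3 had 5.51, 5.95 and 5.62 with the anti-LINC01269 ASO, against 5.94, 5.76 and 5.98 with the control ASO, a difference of -0.20 (interval -0.49 to 0.09, limma adjusted p = 0.702). Replicate 2 with the anti-LINC01269 ASO fell among the controls. ORMDL3 (-0.06), GRB7 (-0.05) and CDK12 (0.02) had intervals within -0.24 to 0.17.

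In MDA-MB-231 the PGAP3 difference was the largest in size, and it did not pass. PGAP3 had deposited log2 values of 6.70, 6.63 and 6.23 with the anti-AL078604.2 ASO, against 6.81, 7.03 and 7.04 with the control ASO. The groups did not overlap, and replicate 3 with the anti-AL078604.2 ASO was the lowest. The difference was -0.44 ± 0.14 on the log2 scale (SE; 95% interval -0.73 to -0.15, a ratio of 0.738), with a limma adjusted p of 0.237. Its unadjusted p was 0.00551, and 9.35% of all features had an unadjusted p under 0.05. Of the 6 genes, PGAP3 was the 1 without overlap, against 17.2% of all features. GRB7 had 7.80, 7.67 and 7.74 with the anti-AL078604.2 ASO, against 7.47, 7.73 and 7.59 with the control ASO, a difference of 0.14 (interval -0.04 to 0.33, limma adjusted p = 0.689). MIEN1 (0.05), CDK12 (0.00), ORMDL3 (-0.01) and STARD3 (-0.04) lay close to 0.

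In MDA-MB-468, given the same ASO, no gene's arrays were free of overlap, against 16.9% of all features. PGAP3 had 6.07, 5.93 and 6.23 with the anti-AL078604.2 ASO, against 6.22, 6.41 and 6.28 with the control ASO, a difference of -0.23 (95% interval -0.52 to 0.06, limma adjusted p = 0.599). STARD3 had 7.56, 7.52 and 7.31 with the anti-AL078604.2 ASO, against 7.55, 7.64 and 7.74 with the control ASO, a difference of -0.18 (interval -0.39 to 0.03, limma adjusted p = 0.555). ORMDL3 had 7.67, 7.53 and 7.41 with the anti-AL078604.2 ASO, against 7.62, 7.71 and 7.77 with the control ASO, a difference of -0.17 (interval -0.33 to -0.00385, limma adjusted p = 0.464), with replicate 3 of the anti-AL078604.2 ASO lowest. Its unadjusted p was 0.0454, and 10.5% of all features had an unadjusted p under 0.05. GRB7 (-0.10), CDK12 (0.02) and MIEN1 (0.01) had intervals that held 0.

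The anti-AL078604.2 ASO was given in both MDA-MB-231 and MDA-MB-468, and the difference between the effects in these lines was tested by an interaction contrast in limma. None of the 6 genes passed, and 0 of 29855 features did (1243, or 4.16%, at an unadjusted p under 0.05). GRB7's effect was higher in MDA-MB-231 than in MDA-MB-468 by 0.24 on the log2 scale (95% interval -0.02 to 0.50, limma adjusted p = 0.998), and PGAP3's was lower by a log2 difference of -0.21 (interval -0.62 to 0.20, limma adjusted p = 0.998). PGAP3's difference from control was below 0 in each of the 3 lines (-0.20, -0.44 and -0.23), none of which passed. The ASO in SKBR3 was a different one, and the share of all features below 0 in each line was not counted. PGAP3 had the lowest percentiles of the 6 genes, 65.4 to 72.1 in SKBR3, 65.1 to 75.9 in MDA-MB-231 and 63.2 to 70.6 in MDA-MB-468.

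**Figure D4:**
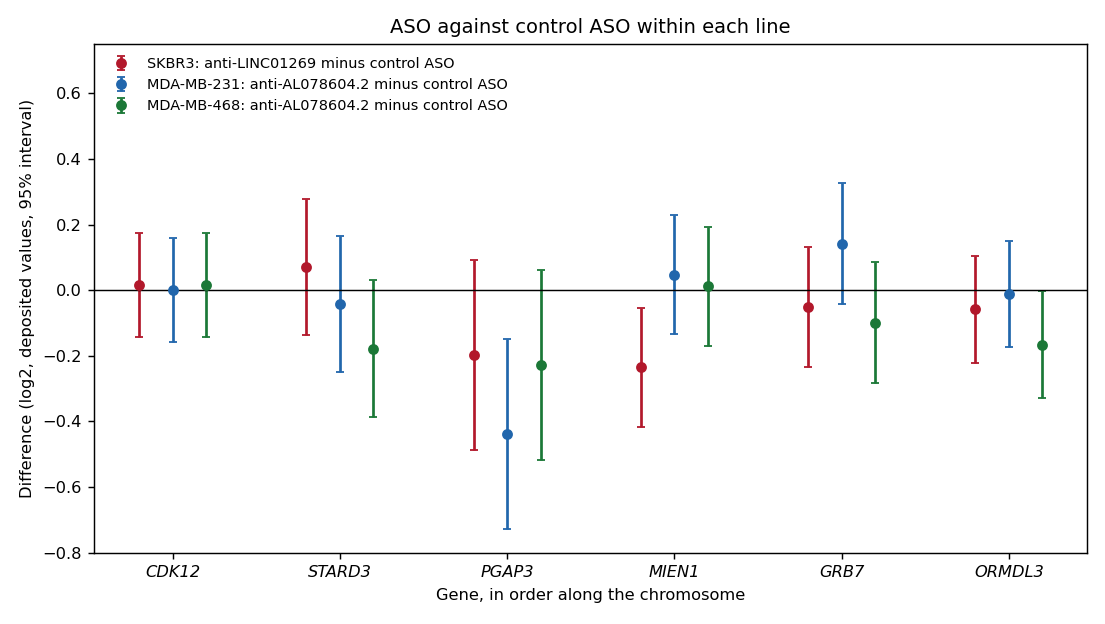
Log2 difference of the anti-lncRNA ASO from the control ASO of the same line (vertical axis, deposited values, bars give the 95% interval) for the 6 genes in order along the chromosome, with SKBR3 in red, MDA-MB-231 in blue and MDA-MB-468 in green. PGAP3 lies below 0 in each line (-0.20, -0.44 and -0.23), and no gene passed the adjusted test.

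The genes listed beside the neighbours gave 0 calls in each ASO comparison as well. In the wider ERBB2 region, with 21 genes tested, the largest differences in size with the anti-LINC01269 ASO in SKBR3 were RAPGEFL1 (-0.34), CDC6 (0.28) and MED1 (0.22), with limma adjusted p of 0.577, 0.489 and 0.414. In MDA-MB-231 they were LASP1 (0.22), IGFBP4 (0.20) and MED1 (0.19), and in MDA-MB-468 RAPGEFL1 (-0.13), MED1 (0.13) and CCR7 (0.12). In the list of ERBB receptors and GRB7-family adaptors, PTK2 had the largest difference in size in each line, with -0.27 in SKBR3, -0.51 in MDA-MB-231 and -0.39 in MDA-MB-468 (limma adjusted p of 0.581, 0.165 and 0.334). The next in size were GRB14 (-0.19) and GRB2 (0.12) in SKBR3, GRB14 (-0.42) and ERRFI1 (0.20) in MDA-MB-231, and ERRFI1 (0.31) and ERBIN (0.22) in MDA-MB-468.

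The sterol, GPI anchor, sphingolipid, CDK12 and MIEN1 lists, with 8, 6, 10, 9 and 4 genes tested, also had 0 passing in each line, and the differences that follow are the 3 largest in size of each list. In SKBR3 with the anti-LINC01269 ASO the sterol list had OSBPL1A (-0.63, limma adjusted p = 0.429), STARD4 (0.07) and STARD5 (0.05), and the GPI anchor list had MPPE1 (-0.27), PGAP6 (0.11) and DPM3 (-0.10). The sphingolipid list had SGMS2 (-0.44, limma adjusted p = 0.365), UGCG (0.30) and CERS5 (0.21) there, the CDK12 list MDC1 (0.17), CDK13 (-0.12) and ATR (-0.11), and the MIEN1 list SYK (-0.24), ANXA2 (0.12) and AKT1 (-0.06). OSBPL1A, SGMS2, UGCG, MPPE1 and SYK thus differed more in size than any of the 6 neighbours in SKBR3, without passing. So did RAPGEFL1, CDC6 and PTK2 of the lists above.

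In MDA-MB-231 with the anti-AL078604.2 ASO the sterol list had VAPB (-0.32), OSBPL1A (-0.11) and LAMP1 (-0.06), and the GPI anchor list had DPM3 (-0.21), PGAP1 (-0.18) and PGAP2 (-0.11). The sphingolipid list had UGCG (0.37), CERS4 (-0.25) and SGMS1 (-0.22) there, the CDK12 list BARD1 (-0.34), RAD51C (0.15) and ATR (-0.14), and the MIEN1 list SYK (-0.23), ANXA2 (0.22) and VEGFA (-0.14). In MDA-MB-468 the sterol list had STARD4 (0.27), MOSPD2 (0.25) and VAPB (-0.24), and the GPI anchor list MPPE1 (-0.21), GPAA1 (-0.19) and PGAP6 (-0.10). The sphingolipid list had CERS4 (-0.33), UGCG (0.21) and SGMS1 (-0.19) there, the CDK12 list CDK13 (0.24), RAD51C (0.24) and CCNK (0.17), and the MIEN1 list ANXA2 (0.17), AKT1 (-0.07) and SYK (-0.03).

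For each gene, the 3 named genes most like it were taken by Pearson's r over the 18 arrays after the mean of each group had been subtracted, as a description of array-to-array deviations. Arrays of 1 line appear to share their scaling, and these are the highest of about 11148 correlations for each gene. For ORMDL3 they were PGLYRP1 (0.888), GPR35 (0.840) and LZTR1 (0.836), and for MIEN1 RHOA (0.849), COPS6 (0.845) and IL18R1 (0.835). For GRB7 they were MUL1 (0.862), DEXI (0.834) and FLYWCH1 (0.815), and for STARD3 NEU1 (0.921), ASCC2 (0.911) and MTMR4 (0.911). For PGAP3 they were SUSD2 (0.889), ATF6B (0.880) and CLSTN1 (0.877), and for CDK12 SUPT16H (0.855), PRPF38A (0.849) and CLIP1 (0.846). None of the 6 genes was among the 3 most like another. Between the 6 genes, r ran from -0.451 for CDK12 and ORMDL3 to 0.567 for GRB7 and ORMDL3.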

How the data were processed

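The 18 RNA samples were labelled with the WT PLUS kit, per the labels' protocols, and hybridised to Affymetrix Human Gene 2.0 ST arrays. Per the submitters' processing notes, the authors used Transcriptome Analysis Console on the scans. Version, normalization and genome build are not given in the sources used here. Deposited values, 0.41 to 13.84, were read as log2 expression from their range, since no header names a scale. The precision is limited by the number of arrays.

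limma 3.58.1 (R 4.3.3) was used to fit a group-means model to all 18 arrays (12 residual degrees of freedom; 4.33 prior degrees of freedom on deposited values, 4.34 on quantile-normalized values), with an intensity trend and Benjamini-Hochberg adjustment over all features tested, at a threshold of 0.05. Comparisons within a line used deposited values, and comparisons between lines values quantile-normalized over all arrays. The script was tested on simulated data. Gene symbols came from GEO's platform annotation, and positions and sequences from RefSeq (GRCh38.p14). Control probes were not marked and so were not removed. Alternatives were other normalizations, filters, variance models, sets of arrays, a replicate block and leaving out each array.

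The 6 genes, the gene lists and the tests were chosen with earlier results of these data known. Named were the 6 genes, of each list described the 3 with the largest absolute difference and any that passed, and for each gene the 3 most correlated named genes. Marker genes printed in the check of the labels were picked after their values were seen.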

Additional observations from a re-analysis of the deposited data

How the results depend on the processing

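The median-centred values gave 2, 4 and 2 of the 6 genes as called in SKBR3 against the others with the control ASO, in MDA-MB-231 against MDA-MB-468, and in SKBR3 against the others in the anti-lncRNA ASO arrays, as the quantile-normalized values did. Of 516 results of single genes under an alternative, 491 kept their side of the threshold with no called value turning (25 of these were uncalled in both settings and differed in sign), 13 lost the call, 6 gained it and 6 turned. Turning came only with no normalization between lines, which moved the median of all features to -0.69 (control ASO) and -0.68 (anti-lncRNA ASO arrays) and called all 6 genes in both, against 2 in each. CDK12 was then -0.68 and ORMDL3 -0.18 in the control ASO comparison, and CDK12 was -0.67, STARD3 -0.54, PGAP3 -0.61 and ORMDL3 -0.15 in the anti-lncRNA ASO arrays. By its construction this alternative keeps the offset between lines, and the source of that offset was not tested. It called 26806 features (206 higher, 26600 lower) in place of 10471 (5055 higher, 5416 lower), and 26590 (192 higher, 26398 lower) in place of 11045 (5430 higher, 5615 lower). In MDA-MB-231 against MDA-MB-468 it gave 9309 higher and 1571 lower in place of 3960 and 3824, with CDK12 (-0.06, limma adjusted p = 0.547) no longer passing and STARD3 (0.40, limma adjusted p = 0.00492) passing. Without the filter on dim features 15918 features were called in SKBR3 against the others with the control ASO.

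Leaving out 1 array gave 1 to 3 of the 6 genes in MDA-MB-231 against MDA-MB-468 (4 with all arrays) and 2 to 3 in SKBR3 against the others in the anti-lncRNA ASO arrays, while 2 passed in each such repeat with the control ASO. The cause was not tested. In the ASO comparisons 0 of the 6 genes passed under every alternative run. Features called with 1 array left out ran from 0 to 231 in SKBR3 (0 with all; 231 without anti-LINC01269 replicate 2), from 0 to 532 in MDA-MB-231 (51 with all; 532 without anti-AL078604.2 replicate 1) and from 0 to 12 in MDA-MB-468 (2 with all; 12 without anti-AL078604.2 replicate 3). They numbered 1 in SKBR3 and 28 in MDA-MB-231 without the filter, 26 in MDA-MB-231 without the intensity trend, and 3 in MDA-MB-231 and 0 in MDA-MB-468 with only the arrays of that line in the fit. Samples with the same replicate number did not visibly deviate together (correlations from -0.124 to 0.101, against -0.146 to 0.120 for samples with different numbers). That cannot show whether samples with the same number were prepared together. With the replicate block 0 features were called in MDA-MB-231, 0 in MDA-MB-468 and 0 in SKBR3, and 0 of the 6 genes in each. Each gene has 1 feature, so averaging features gave no value.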
